A study of Mus musculus with 12 samples.

Results

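Ribosome biogenesis and RNA polymerase I genes were followed in mouse liver at 3 times around a dose of the hepatic mitogen TCPOBOP, with and without Yap1 in hepatocytes. The 40 genes were listed by symbol from their known function. For each, the probe set that names the gene alone and has the highest mean log2(intensity + 16) over the 12 arrays stood for the gene. Of the 40 genes, 39 had such a probe set, among 18194 genes that did, and 36 passed the filter on low values, among 14103 genes tested. The filter asked for a value above the array's own median on at least 2 of the 12 arrays. Of the 36, 26 passed on all 12 arrays, 7 on 9 to 11 arrays and 3 on 5 to 8 arrays. Mrto4, a large subunit assembly factor, had only a probe set that names several genes. Rrp9, Polr1e and Rrp12 lay below the median on every array and were not tested.

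Ribosomes are made in the nucleolus, where RNA polymerase I transcribes the precursor of the large rRNAs. Small nucleolar ribonucleoproteins (snoRNPs) guide the methylation and pseudouridylation of that precursor, the small subunit processome folds and cleaves it, and a separate set of factors assembles the large subunit. In regenerating or mitogen-stimulated liver this machinery is a known part of the growth that precedes DNA synthesis, and many of its genes are known targets of the transcription factor MYC.

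The livers came from female mice with 2 floxed Yap alleles (Yap fl/fl), aged 8 to 12 weeks. KO mice had received AAV8.TBG.PI.Cre.rBG, in which the TBG promoter restricts Cre to hepatocytes, so that other liver cells kept the gene. WT mice had received the eGFP vector AAV8.TBG.PI.eGFP.WPRE.bGH8 and carried the same floxed alleles. TCPOBOP activates the nuclear receptor CAR and was given once by oral gavage in corn oil at 3 mg/kg, 10 days after the virus. Day 0 livers (2 arrays per genotype) had the virus only, day 1 was measured on 1 array per genotype of pooled RNA, and day 2 on 3 arrays per genotype. How many animals went into each pool was not given. No group without TCPOBOP was followed after day 0, so the drug, the gavage and the elapsed time cannot be told apart. The labels do not say that replicates were separate animals, so p-values measure the spread between these samples.

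Values are MAS5 intensities (MAS5 is Affymetrix's algorithm that turns the probes of a set into 1 value), and differences are on the log2(intensity + 16) scale, which understates the change of dim genes. A gene was called where limma's adjusted p over all 14103 genes was under 0.05. Array medians ran from 231.6 to 277. Yap1 itself lay between 999.2 and 1306.3 on the 6 WT arrays and between 449.6 and 796.7 on the 6 KO arrays, with no overlap. The brightest value of an array was 48217 to 67457 on the KO day 2 arrays and 103216 to 116918 on the WT day 2 arrays, so the tests were also run after quantile normalization, which is given for each member whose call it changed. The 9 hepatocyte markers summed to 406135 to 463972 on the WT day 2 arrays and to 260881 to 329372 on the KO day 2 arrays, and 3 of the 9 were called lower in KO at day 2 (median -0.27). After quantile normalization that direction turned, with 3 of the 9 called higher in KO and none lower (median 0.23). The summed 9 Kupffer cell and macrophage markers ran from 13051.7 to 13429.8 and from 8950.9 to 13270 on the same arrays, and the 9 sinusoidal endothelial markers from 8755.8 to 9788.2 and from 10157 to 12076.7. The stellate cell markers moved with the day: they summed to 12847.2 to 13530 at day 0 and 9248.7 to 9616.7 at day 2 in WT, and to 13034.6 to 17849.5 and 10102 to 11024.7 in KO. Of 7 stellate markers tested, 3 were called lower at day 2 in each genotype and 5 in the mean of both. No marker value was 0. The part of cell composition in the results was not tested, and in bulk liver fewer cells of a type and less RNA per cell cannot be told apart.

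On the median, the 36 tested genes were above day 0 in both pools at day 1, and at day 2 in WT but not beyond the replicate spread in KO. At day 1 the median over the 36 genes was 0.49 (log2) above day 0 in the WT pool and 0.56 above in the KO pool, while the medians over all genes tested were -0.07 and -0.05. At day 2 the median was 0.32 above day 0 in WT and 0.02 above in KO, beside -0.11 and 0.05 for all genes. The median of the centred levels (log2 minus the gene's mean) was -0.11 and -0.29 on the 2 WT day 0 arrays, 0.27 on the WT pool and 0.20, 0.11 and 0.16 on the WT day 2 arrays. In KO it was -0.13 and -0.07 at day 0, 0.41 on the pool and -0.11, -0.12 and -0.16 at day 2. All 3 WT day 2 arrays thus lay above every day 0 array, and all 3 KO day 2 arrays lay among them. The spread between replicates of this median was 0.06 (pooled SD). The pooled day 1 arrays have no replicate, so their differences carry no test.

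**Figure D1:**
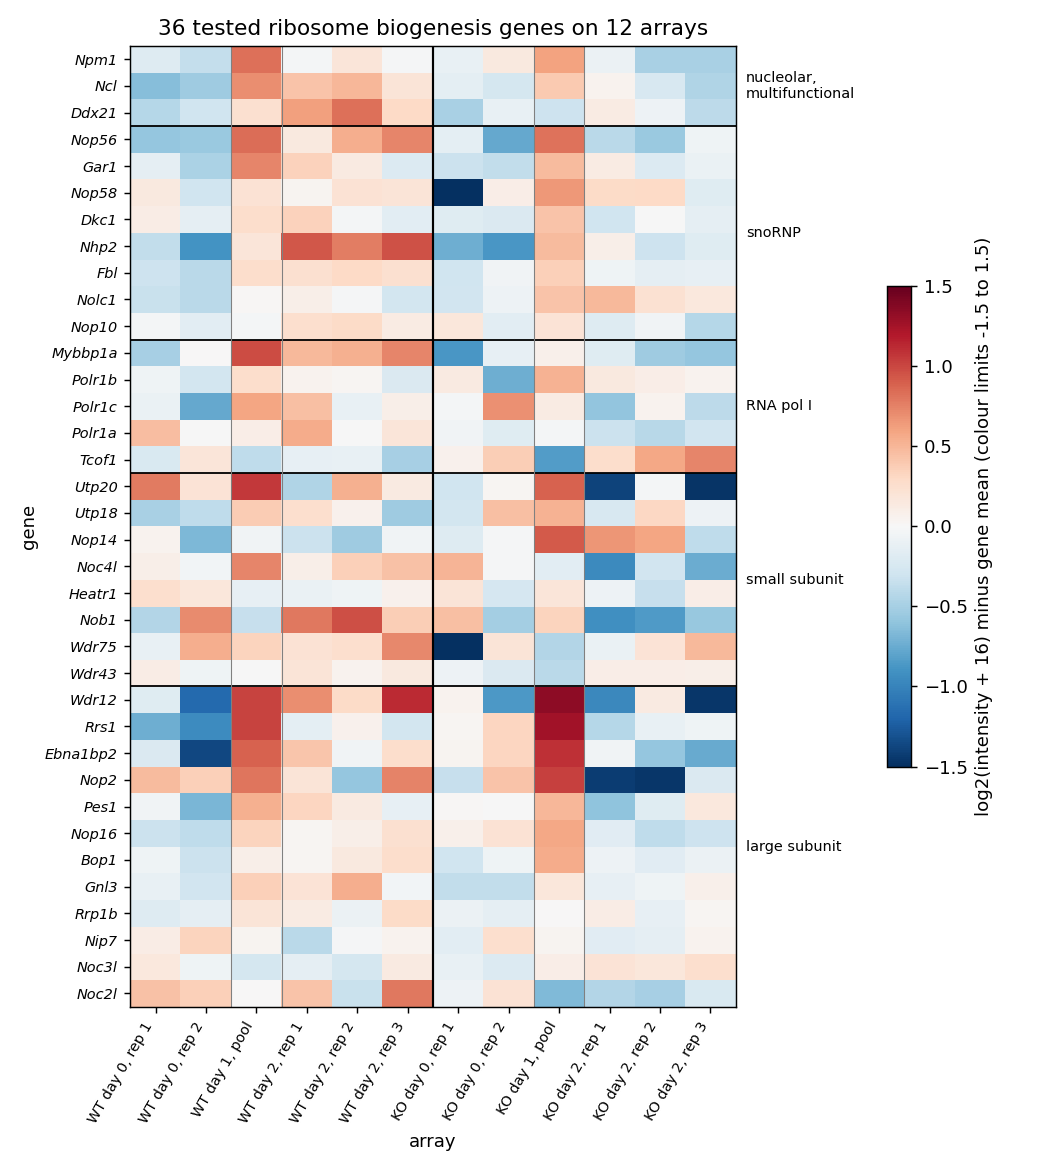
Heat map of the 36 tested genes (rows, grouped by role) on the 12 arrays (columns), coloured by log2(intensity + 16) minus the gene's mean, with colours capped at -1.5 and 1.5. The 2 pooled day 1 columns are mostly red, the WT day 2 columns are more often red than the day 0 columns, and the KO day 2 columns are mixed.

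At day 1, 16 of the 36 genes (44.4%) were at least 1.5-fold above day 0 in the WT pool, against 14.3% of all genes tested. In the KO pool 17 of 36 (47.2%) were, against 14.1%. Both pools passed that fold for 8 genes (22.2%), against 6.86% of all genes: Wdr12, Nop56, Rrs1, Ebna1bp2, Gar1, Nhp2, Ncl and Npm1. None was at least 1.5-fold lower in both on the probe set used. Another kept Ebna1bp2 probe set was below day 0 in both pools, by log2 differences of -0.64 in WT and -1.26 in KO. The 2 pools differed from each other by at least 1.5-fold for 6 of the 36 genes (16.7%), against 21.3% of all genes, and the median difference was 0.05. Of these, Mybbp1a (1927.3 in WT, 1027.0 in KO), Noc4l, Wdr75 and Noc2l were lower in KO, and Nop14 and Nob1 were higher.

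At day 2, 7 of 36 genes (19.4%) were called higher than at day 0 in WT, against 7.27% of all genes, and none lower, against 5.37%; 13 of the 36 had an unadjusted p under 0.05. In KO, 1 gene was called higher (background 4.20%) and 1 lower (background 4.49%). In the mean of both genotypes' changes 6 genes were called higher, against 7.70% of all genes, and none lower, against 6.84%. These were Nhp2, Ncl, Fbl, Nop56, Ddx21 and Gnl3. KO was called lower than WT at day 2 for 6 of 36 genes (16.7%), against 5.24% of all genes, and higher for none, against 4.00%; 18 had an unadjusted p under 0.05. The difference between the genotypes' day 2 changes was called for 3 genes, each with the lower change in KO (8.33%, against 2.07% of all genes), and for none in the other direction (background 1.08%). At day 0 none of the 36 was called between genotypes in either direction by limma, against 0.170% of all genes, and 4 had an unadjusted p under 0.05. The counts at an unadjusted p have no share of all genes beside them, so they are not read as an excess. Leaving out 1 array changed the counts of called genes. The WT count was 3 when WT day 0 replicate 2 was left out, and 4 without WT day 0 replicate 1 or WT day 2 replicate 2. The KO count of 2 was 1 without KO day 0 replicate 1 or WT day 2 replicate 1 and 0 without KO day 2 replicate 1 or 3. The count in the mean of both was 2 without either WT day 0 array and 3 without WT day 2 replicate 2 or KO day 2 replicate 1. The genotype count at day 2 was 2 without WT day 2 replicate 3 or KO day 2 replicate 3 and 3 without KO day 2 replicate 1 or 2. After centring each array on its median that count was 13, all lower in KO. No share of all genes under that centring stands beside it, so it is not read as an excess. The genotype contrast at day 2 and the WT change share the WT day 2 arrays, so their calls are not independent of each other.

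Counted by arrays, 17 of the 36 genes (47.2%) had all 3 WT day 2 values above both day 0 values, against 19.2% of all genes. In KO 6 (16.7%) did, against 22.6%, and 7 (19.4%) had all 3 values below, against 17.8%. All KO day 2 values were below all WT day 2 values for 14 genes (38.9%), against 16.1%, and above for 3 (8.33%), against 20.1%. All 3 KO day 2 values were below the KO pool for 27 genes (75.0%), against 29.4% of all genes. The same held in WT for 15 genes (41.7%), against 28.6%, while 6 genes (16.7%) had all 3 WT day 2 values above the pool, against 29.1%. Both pools lay above all day 0 arrays of their genotype for 22 of the 36 (61.1%), against 18.2% of all genes. Centring each array on its median moved the median of all genes in the day 2 genotype contrast from 0.09 to -0.08, and that of the 36 genes from -0.34 to -0.51.

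**Figure D2:**
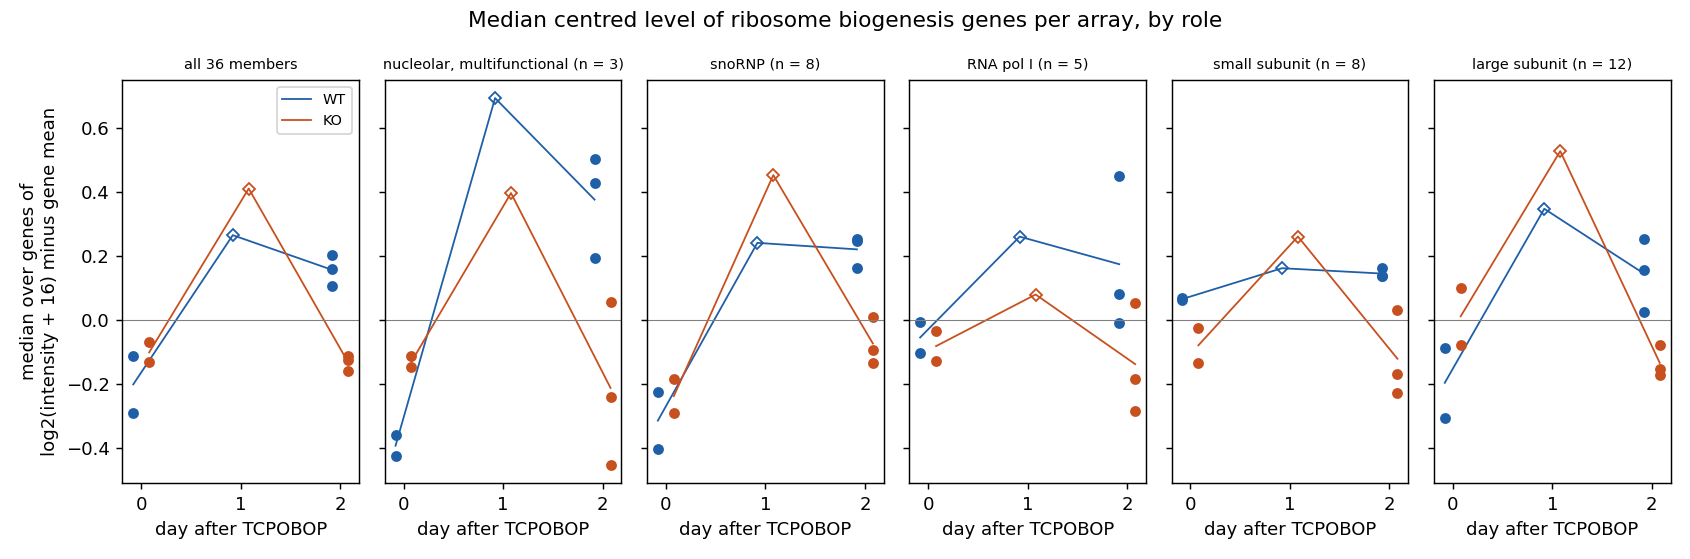
Median over genes of log2(intensity + 16) minus the gene's mean, per array, against the day after TCPOBOP for all 36 genes and for each role (circles, single arrays; open diamonds, pooled day 1 arrays; lines join group means; blue WT, orange KO). For all 36 genes the WT day 2 arrays lie at 0.11 to 0.20 and the KO day 2 arrays at -0.16 to -0.11.

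Among the multifunctional nucleolar proteins, Ncl and Ddx21 rose in WT by day 2. On the probe set used, both were called lower in KO than in WT at that time, but other kept Ncl probe sets did not show it. The median over the 3 genes was 1.1 in the WT pool and 0.59 in the KO pool at day 1, and 0.94 in WT and -0.0045 in KO at day 2. Ncl encodes nucleolin, an abundant nucleolar RNA-binding protein of rRNA transcription and processing. Its intensities were 1211.5 and 1314.2 in WT at day 0, 3084.1 in the WT pool and 2566.7, 2703.3 and 2179.4 in WT at day 2. In KO they were 1715.6 and 1579.0 at day 0, 2508.7 in the pool and 1978.5, 1609.3 and 1386.7 at day 2. The WT day 2 values all exceeded both WT day 0 values and every KO day 2 value, while the KO day 2 values overlapped those of day 0. The day 2 change was 0.96 ± 0.16 (log2, SE; 1.95-fold, adjusted p = 0.0022) in WT and -0.0045 (adjusted p = 0.992) in KO. KO was 1.5-fold lower at day 2 (-0.59 ± 0.14, adjusted p = 0.0282), and after quantile normalization the adjusted p was 0.0632. The change in KO was below that in WT by a log2 difference of -0.97 ± 0.23 (adjusted p = 0.0442; 0.0695 after quantile normalization). A second Ncl probe set was also higher after TCPOBOP, with 560.4 and 615.7 at day 0 and 1302.5, 1157.6 and 1010.3 in WT at day 2. On it the KO change at day 2 was 0.70, from day 0 values of 451.3 and 1414.5. On that probe set the KO day 2 values, 1401.6, 1368.3 and 1180.9, overlapped those of WT, and on a further, dimmer one the genotypes differed by 0.02, so the lower KO level was seen with 1 of the 3 kept probe sets. The genotype call on the first probe set was lost without WT day 2 replicate 1 or 2, or KO day 2 replicate 2 or 3 (adjusted p from 0.0778 to 0.105).

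Npm1 encodes nucleophosmin, a histone and ribosome chaperone of the nucleolus. Its values in WT were 1828.0 and 1627.3 at day 0, 3708.7 in the pool and 2048.7, 2376.1 and 2066.7 at day 2. In KO they were 1928.1 and 2318.3 at day 0, 3196.9 in the pool and 1971.6, 1491.6 and 1487.6 at day 2. Both pools were the highest array of their genotype, and KO at day 2 lay below WT on every array. None of its tests was called on the probe set used (WT change 0.32 ± 0.16, adjusted p = 0.217, and KO against WT at day 2 -0.40 ± 0.14, adjusted p = 0.0957). Another kept Npm1 probe set gave a larger genotype difference at day 2, -0.87. Its values were 1208.8, 790.6 and 820.1 in KO and 1677, 1581.7 and 1859.3 in WT. Ddx21 encodes a nucleolar RNA helicase that acts on both RNA polymerase I and II transcripts. It measured 460.7 and 506.2 in WT at day 0, 742.0 in the pool and 964.7, 1116.9 and 769.0 at day 2. KO values were 440.8 and 576.3, then 498.0 in the pool, then 679.1, 592.9 and 469.5. WT at day 2 was above all other Ddx21 values, and the KO pool lay within the KO day 0 values. On a second, dimmer Ddx21 probe set the KO pool (351) was above both KO day 0 arrays (72.2 and 199.4), and the genotype difference at day 2 was -1.22. The WT change was 0.94 ± 0.22 (1.91-fold, adjusted p = 0.0166) and KO was 1.62-fold lower at day 2 (-0.70 ± 0.20, adjusted p = 0.0495). The WT call was lost without either WT day 0 array or WT day 2 replicate 2 (adjusted p from 0.0558 to 0.119). The genotype call was lost without any 1 of the 3 WT day 2, 3 KO day 2 or 2 WT day 0 arrays (adjusted p from 0.0516 to 0.162).

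The snoRNP genes held the member with the largest day 2 change, Nhp2. All 8 tested snoRNP genes had a positive change in WT, with a median of 0.36, and 3 were called, against 7.27% of all genes called higher. In KO the median was 0.20 and 1 of these genes was called higher, against 4.20% of all genes. Their day 1 medians were 0.50 in the WT pool and 0.72 in the KO pool. Nhp2 encodes a core protein of H/ACA snoRNPs, which direct pseudouridylation. Its WT intensities were 1243.8 and 860.8 at day 0, 1831.1 in the pool and 3089.1, 2753.6 and 3144.9 at day 2. The KO intensities were 962.7 and 873.4 at day 0, 2248.8 in the pool and 1711.8, 1295.4 and 1417.4 at day 2. In WT the level was still higher at day 2 than at day 1, and in KO it was lower, though above day 0 on all 3 arrays. The change was 1.52 ± 0.17 in WT (2.86-fold, adjusted p = 0.000166) and 0.67 ± 0.17 in KO (1.59-fold, adjusted p = 0.0342). KO was 2.03-fold lower at day 2 (-1.02 ± 0.16, adjusted p = 0.00454). The WT change and the genotype difference were called in each of the 22 alternatives computed for single genes. The KO change was not called after leaving out either KO day 0 array, KO day 2 replicate 1 or 3, or WT day 2 replicate 1 (adjusted p from 0.0512 to 0.13). A second Nhp2 probe set gave a WT change of 1.33 and a genotype difference of -0.49.

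The box C/D core proteins Fbl and Nop56 rose in WT, and Nop58 was not called. Fbl encodes fibrillarin, the methyltransferase of box C/D snoRNPs. It measured 1489.9 and 1397.5 in WT at day 0, 2225.3 in the pool and 2190.5, 2277.3 and 2195.7 at day 2. In KO it measured 1509.5 and 1779.2, then 2374.7 in the pool, then 1775.3, 1684.0 and 1693.9. The KO pool was the highest Fbl value of all, and the KO day 2 values fell back within the day 0 range. In WT the change was 0.62 ± 0.12 (1.53-fold, adjusted p = 0.00582), a call lost when WT day 0 replicate 2 was left out (adjusted p = 0.0625). KO against WT at day 2 was -0.37 with an adjusted p of 0.0547, although no array overlapped. Another kept Fbl probe set gave a genotype difference of -0.85 at day 2, with changes of 0.77 in WT and -0.42 in KO. Nop56 encodes a scaffold protein of the same particles. Its values were 589.0 and 598.8 in WT at day 0, 1607.8 in the pool and 984.0, 1305.8 and 1482.8 at day 2. In KO they were 801.3 and 515.2, then 1571.6 in the pool, then 669.5, 601.5 and 850.5. Both pools were over 1.5-fold above every day 0 array, and only the WT level remained above day 0 on all day 2 arrays. Nop56 rose by 1.04 ± 0.23 in WT (2.06-fold, adjusted p = 0.0112), beside a KO change of 0.12 (adjusted p = 0.818). KO was 1.75-fold lower than WT at day 2 (-0.81 ± 0.21, adjusted p = 0.0316). The WT call was lost without either WT day 0 array (adjusted p = 0.0797 and 0.0735), and the genotype call without WT day 2 replicate 2 or 3 or KO day 2 replicate 1 or 2 (adjusted p from 0.0773 to 0.117).

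Of the other snoRNP genes, Nop58 had a KO day 0 array at 69.8 beside 279.5 on the other, so its KO differences rest on that array. Gar1, a further H/ACA core gene, was 1.03 above day 0 in the WT pool and 0.81 in the KO pool, with no call at day 2. Dkc1 encodes dyskerin, the pseudouridine synthase, and its pools were 0.28 and 0.63 above day 0. Nop10 differed by 0.06 and 0.20 at day 1. Its KO day 2 values (4722.8, 5198.2 and 4002.5) all lay below those of WT (6431.3, 6561.4 and 5889.4), at an adjusted p of 0.0525 (0.25 after quantile normalization). On another kept Nop10 probe set the genotypes overlapped at day 2, with 4381.5, 3675.2 and 4612.1 in WT and 4627.6, 4288.6 and 4009.4 in KO. Nolc1 encodes a nucleolar snoRNP chaperone, and it was the 1 snoRNP gene of 8 with a higher mean level in KO at day 2. Its WT values were 467.4 and 443.4 at day 0, 600.3 in the pool and 626.8, 584.9 and 483.8 at day 2, against 481.4 and 558.7, 798.9, and 831.6, 693.1 and 661.6 in KO. KO exceeded WT on each array of the same day, by a mean of 0.27 over days 0 and 2, at the smallest p of the exact permutation of genotype within days (two-sided, p = 0.0167). That smallest p was reached by 2 of the 36 genes (5.56%), Nolc1 and Polr1a, and by 4.00% of all genes. The limma test of Nolc1 at day 2 was not called (0.36 ± 0.17, adjusted p = 0.189). On another kept Nolc1 probe set the genotypes overlapped at day 2, with 431.6, 356.8 and 391.4 in WT and 407.2, 406.9 and 589.6 in KO.

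**Figure D3:**
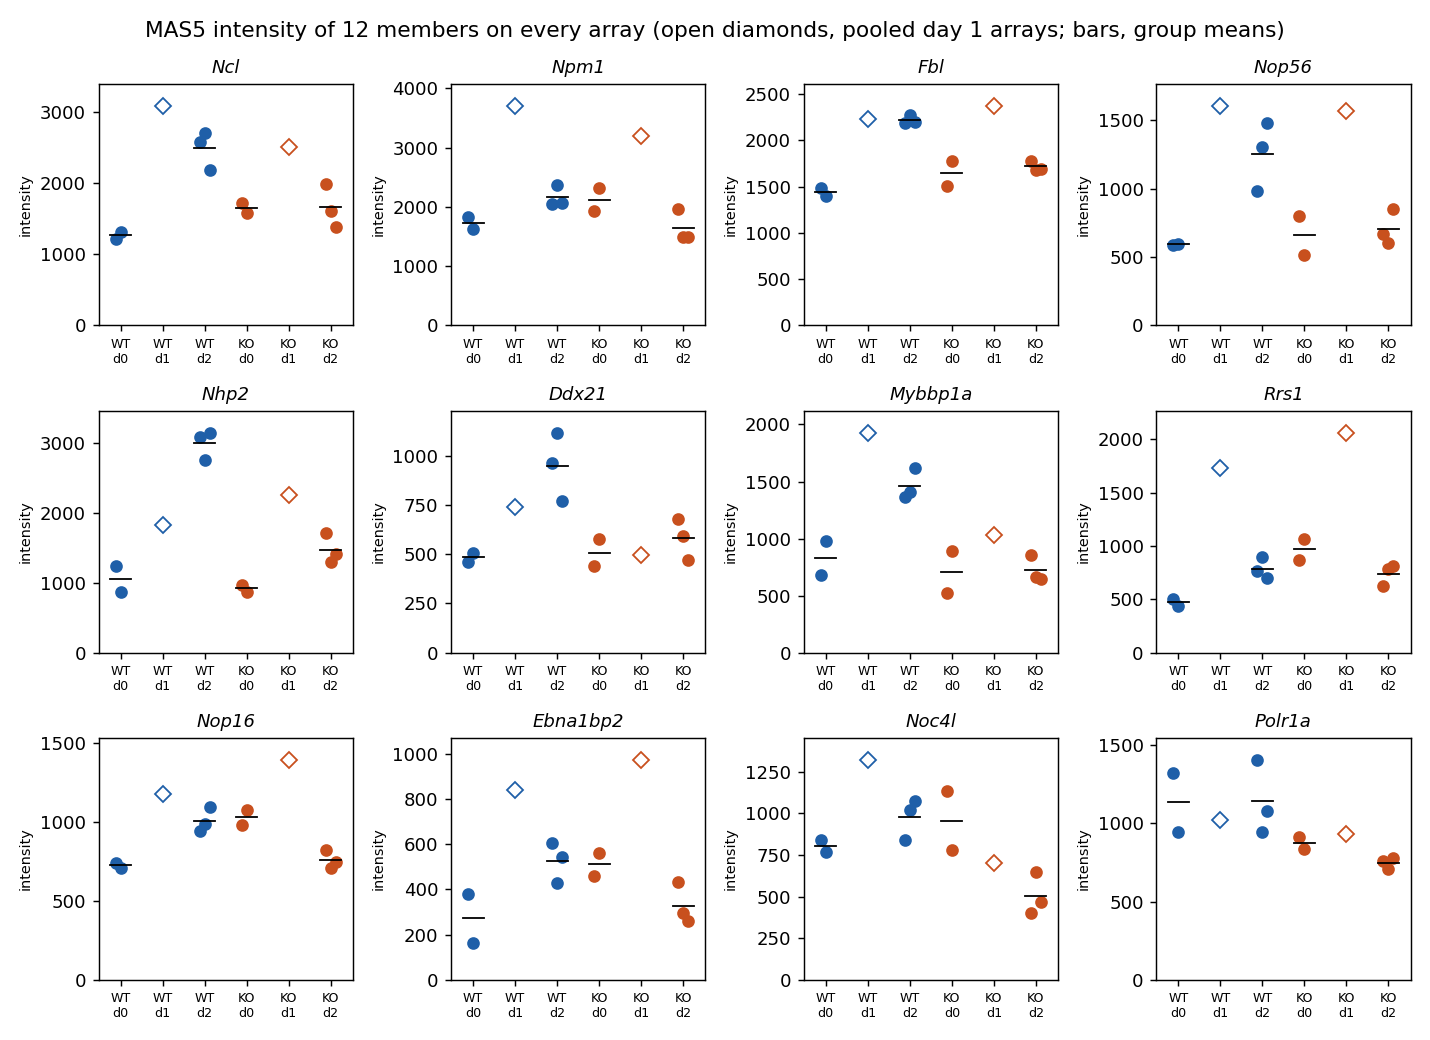
MAS5 intensity (linear axis from 0) of 12 genes on every array by genotype (blue WT, orange KO) and day (d0, d1, d2); circles are single arrays, open diamonds the pooled day 1 arrays and bars the means of 2 or 3 arrays. For Nhp2, Ncl and Nop56 the WT day 2 arrays stand above the KO day 2 arrays, while both day 1 pools stand above day 0.

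No tested RNA polymerase I subunit was called at day 2 as deposited, and the cofactor Mybbp1a was. The median over the 5 tested genes was 0.43 in the WT pool and 0.09 in the KO pool at day 1, and 0.13 and 0.07 at day 2. Polr1a encodes the largest, catalytic subunit. It measured 1321.6 and 946.8 in WT at day 0, 1019.8 in the pool and 1404.6, 944.2 and 1078.8 at day 2. KO values were 914.0 and 837.6, then 932.5 in the pool, then 757.4, 707.9 and 779.4. Polr1a had no day 2 call in WT (0.01 ± 0.19, adjusted p = 0.981) or KO (-0.22 ± 0.19, adjusted p = 0.551). Every KO array lay below every WT array of the same day, with a mean difference of -0.47 over days 0 and 2 (exact permutation within days, two-sided p = 0.0167, the smallest it can give). At day 2 alone the difference was -0.58 ± 0.17, with an adjusted p of 0.0556 as deposited and 0.0476 after quantile normalization. Another kept, dimmer Polr1a probe set did not show the lower KO level. On it the genotypes overlapped at days 0 and 2, and the day 2 difference was 0.18. Polr1b encodes the second-largest subunit, and its values were 575.0 and 494.8 in WT at day 0, 726.2 in the pool and 626.6, 614.9 and 515.8 at day 2. In KO they were 663.7 and 357.8, then 875.7 in the pool, then 671.5, 645.5 and 625.3. Both pools were the highest of their genotype, and the day 2 values overlapped between genotypes. Polr1c encodes a subunit shared with RNA polymerase III. It measured 614.7 and 382.3 in WT at day 0, 1006.3 in the pool and 909.1, 611.3 and 700.8 at day 2, and in KO 644.6 and 1075.2, then 720.1, then 431.9, 686.4 and 500.4. The KO day 0 values were above those of WT, the other groups compared overlapped, and no test was called (KO against WT at day 0 0.76 ± 0.32, adjusted p = 0.568).

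Mybbp1a encodes a nucleolar Myb-binding protein that associates with RNA polymerase I. Its values were 680.6 and 974.8 in WT at day 0, 1927.3 in the pool and 1361.9, 1410.8 and 1619.2 at day 2. In KO they were 521.5 and 887.5, then 1027.0 in the pool, then 853.2, 665.2 and 641.5. Every WT value after TCPOBOP lay above every other Mybbp1a value. Its WT change was 0.83 ± 0.23 (1.78-fold, adjusted p = 0.0378), and KO was 2.02-fold lower at day 2 (-1.02 ± 0.21, adjusted p = 0.0144). The first call was lost without WT day 0 replicate 1, any 1 WT day 2 array, or KO day 2 replicate 2 or 3 (adjusted p from 0.0506 to 0.29). The second was lost without WT day 2 replicate 3 or KO day 2 replicate 2 or 3 (adjusted p from 0.0562 to 0.0604). A second Mybbp1a probe set gave a genotype difference of -0.87 at day 2, and a KO pool 1.44 above day 0 where the first gave 0.58. Tcof1, the treacle cofactor of RNA polymerase I, ran the other way: its pools were the lowest array of each genotype apart from 1 WT day 2 array, at 263.9 and 186.8. Its KO day 2 values, 420.5, 525.3 and 585.6, lay above the WT values of 316.8, 320.8 and 240.4, with an adjusted p of 0.0723. Another kept, dimmer Tcof1 probe set gave the opposite genotype difference at day 2, -1.62. Its values were 41.8, 32.5 and 40.2 in KO and 44.2, 262.3 and 255 in WT. Polr1e, an untested polymerase I subunit, went from 118.1 and 60.1 to 243.1 in the WT pool and from 38.5 and 123.5 to 221.0 in the KO pool.

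The small subunit genes had no call in WT. None of the 8 was called in WT at day 2 (median 0.14, none with an unadjusted p under 0.05). In KO 1 was called lower (median -0.09), against 4.49% of all genes called lower. At day 1 their medians were 0.18 and 0.40. The called gene was Noc4l, whose product pairs with Nop14 in small subunit maturation. Its WT values were 837.8 and 766.9 at day 0, 1320.8 in the pool and 839.4, 1017.9 and 1074.5 at day 2. The KO values were 1133.6 and 777.1, then 703.4 in the pool, then 399.9, 645.7 and 466.5. In KO the pool and all day 2 arrays lay below both day 0 arrays, and in WT they lay above both. The day 2 arrays were below the pool in each genotype. The KO change was -0.90 ± 0.23 (1.87-fold lower, adjusted p = 0.0281), and KO was 1.94-fold lower than WT at day 2 (-0.95 ± 0.20, adjusted p = 0.0163). Leaving out KO day 0 replicate 1 or KO day 2 replicate 1 or 3 ended the call on the KO change (adjusted p from 0.0844 to 0.191). Leaving out WT day 2 replicate 3 or KO day 2 replicate 1 or 3 ended the genotype call (adjusted p from 0.0582 to 0.0617). A second Noc4l probe set gave a like genotype difference at day 2 (-0.95) but not the lower KO level after TCPOBOP: KO was 2.09 above day 0 in the pool and 0.25 above it at day 2, and WT 1.26 above at day 2.

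Wdr75, a processome subunit, had the largest mean day 2 change of its role, 0.72 ± 0.39, and was not called (adjusted p = 0.276). It measured 365.6 and 586.0 in WT at day 0, 502.8 in the pool and 463.1, 476.2 and 664.5 at day 2. In KO it measured 67.8 and 455.3, then 287.7, then 369.3, 459.7 and 563.9, so the difference rests on the KO day 0 array at 67.8. Another kept Wdr75 probe set gave day 2 changes of 0.45 in WT and -0.51 in KO, so the rank within the role depends on the probe set. On that probe set the WT and KO pools stood at 440.9 and 442.7. Nob1, the endonuclease that forms the end of the mature small subunit rRNA, had KO day 2 values of 90.0, 95.1 and 119.1 against 330.4, 373.7 and 242.7 in WT. That difference of -1.49 ± 0.44 had an adjusted p of 0.0557 as deposited and 0.0476 after quantile normalization, and the KO values lay below the array medians. Utp20 and Utp18, both processome subunits, were above day 0 in both pools (Utp20 by 0.57 and 1.02, Utp18 by 0.81 and 0.43). Wdr43 was near day 0 in both pools (-0.03 and -0.26) on its brightest probe set and 1.24 and 0.95 above it on another. Heatr1 and Nop14 had no call. For Heatr1 the day 2 genotype difference was -0.08 on the probe set used and 0.85 and -1.56 on dimmer kept ones. Rrp12, untested, stood at 20.6 to 55.2 on the arrays of days 0 and 2 and at 72.0 and 153.0 in the WT and KO pools.

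The medians of the 12 large subunit assembly genes were alike in the pools and stood apart at day 2. They were 0.47 and 0.52 in the WT and KO pools, and 0.39 in WT and -0.28 in KO at day 2. Rrs1 encodes a factor that brings the small rRNA particle of the large subunit into the precursor. Its WT intensities were 506.6 and 435.8 at day 0, 1732.8 in the pool and 765.9, 893.5 and 700.2 at day 2. The KO intensities were 869.5 and 1068.3, then 2062.0 in the pool, then 626.5, 783.9 and 815.8. The pools were the 2 highest values; WT stayed above its day 0 arrays at day 2, and KO was below its own, which were higher than those of WT. Rrs1 rose by 0.72 ± 0.18 in WT (1.64-fold, adjusted p = 0.0226), beside a KO change of -0.38 (adjusted p = 0.24). The difference between them was -1.10 ± 0.26 (adjusted p = 0.0426). At day 2 itself the genotypes differed by -0.08 (adjusted p = 0.762), while at day 0 KO was 1.01 ± 0.20 higher (adjusted p = 0.0881). The WT call was lost without either WT day 0 array or WT day 2 replicate 2 (adjusted p from 0.0675 to 0.169). Its other probe set stood 1.26 and 0.79 above day 0 in the pools, and its day 2 differences were 0.31 in WT and -0.40 in KO.

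Nop16, a large subunit factor known as a MYC target, had day 2 arrays on opposite sides of day 0 in the 2 genotypes, as Rrs1 did. It measured 740.2 and 709.8 in WT at day 0, 1177.0 in the pool and 945.2, 985.2 and 1098.5 at day 2. In KO it measured 982.1 and 1078.1, then 1394.0, then 824.4, 706.3 and 746.9. All WT day 2 arrays lay above day 0 and all KO day 2 arrays below it. The WT change was 0.47 ± 0.14 (adjusted p = 0.0557; 0.043 after quantile normalization), the KO change -0.43 ± 0.14 (adjusted p = 0.0913), and their difference -0.90 ± 0.20 (adjusted p = 0.0393). Of the 10 arrays of days 0 and 2, leaving out any of 9 ended the call for Nop16 (adjusted p from 0.0558 to 0.127; it held without KO day 0 replicate 1), any of 9 for Rrs1 (from 0.0595 to 0.151; same exception) and any of 9 for Ncl (from 0.0509 to 0.131; it held without KO day 2 replicate 1). Ebna1bp2, another assembly factor, had WT values of 381.9 and 163.7, then 842.9, then 604.6, 429.8 and 543.1, and KO values of 460.5 and 563.4, then 973.9, then 432.4, 294.3 and 259.8. Its WT change of 1.01 ± 0.34 was not called (adjusted p = 0.0731). Another kept Ebna1bp2 probe set did not rise: it was -0.64 from day 0 in the WT pool and -1.26 in the KO pool. At day 2 that probe set gave changes of -0.13 in WT and -0.50 in KO.

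Gnl3 encodes nucleostemin, a nucleolar GTPase of dividing cells, and was called in the mean of both genotypes' changes. Its WT values were 1884.4 and 1668.4 at day 0, 2612.1 in the pool and 2355.8, 2967.8 and 1976.3 at day 2. The KO values were 1577.5 and 1569.7, then 2292.2, then 1867.8, 1952.7 and 2149.2. Day 2 lay above day 0 on all arrays of either genotype. The mean change was 0.38 ± 0.12 (adjusted p = 0.0447; 0.0634 after quantile normalization), and the changes in the genotypes differed by -0.10 ± 0.23 (adjusted p = 0.833). Leaving out any 1 of 9 of the 10 arrays of days 0 and 2 ended the call (adjusted p from 0.0637 to 0.158; it held without WT day 2 replicate 3). The PeBoW complex, which Pes1, Bop1 and Wdr12 form for large subunit rRNA processing, was not called at day 2. Wdr12 had the largest KO difference at day 1 of any tested member, from 258.9 and 129.0 to 654.0, beside 216.1 and 101.3 to 517.4 in WT. At day 2 it was 413.7, 305.4 and 556.8 in WT and 119.0, 274.2 and 80.2 in KO, with no overlap and an adjusted p of 0.0713. Nop2, an rRNA cytosine methyltransferase, had the largest mean day 2 change of its role, -0.68 ± 0.33 (adjusted p = 0.208). It measured 469.8 and 431.2 in WT at day 0, 590.5 in the pool and 383.6, 218.3 and 567.0 at day 2, and in KO 258.6 and 452.0, then 696.1, then 113.8, 111.2 and 285.3. Its groups at day 2 overlapped. Noc2l was below day 0 in both pools (-0.39 and -0.73), and Noc3l, Nip7 and Rrp1b had no call at day 2.

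**Figure D4:**
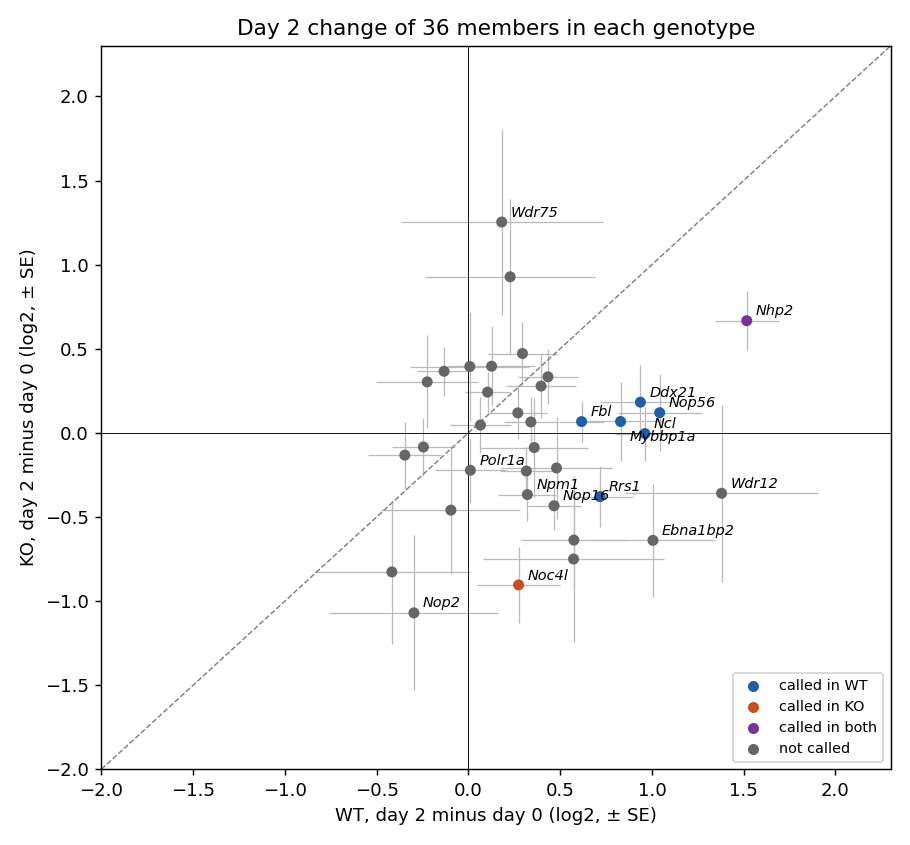
Day 2 change of each of the 36 tested genes in KO (y axis) against WT (x axis), log2 with SE bars, coloured by where limma called it; the dashed line marks equal changes. Nhp2 (1.52 in WT, 0.67 in KO) was the 1 gene called in both, and 29 of the 36 genes had a positive WT change against 18 with a positive KO change.

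MYC binds the canonical E-box, so Myc and the promoters were looked at beside these genes. Myc intensity was 100.4 and 302.8 in WT at day 0, 662.9 in the pool and 514.5, 745.5 and 471.1 at day 2, and in KO 72.2 and 131.5, then 807.7, then 505.9, 570 and 668.7. Myc rose in WT (1.59 ± 0.41, adjusted p = 0.0239) and in KO (2.38 ± 0.41, adjusted p = 0.00345), and at day 2 the genotypes differed by 0.03 (adjusted p = 0.967). Of its partners and family, Mycn (-1.51, adjusted p = 0.0359) and Mxd4 (-1.90, adjusted p = 0.0232) were called lower in KO at day 2. RefSeq promoters (GRCm38.p6) were held for 34 of the 40 genes. The letters CACGTG, which read the same on both strands, occurred in the 250 bases before the start of 2 of the 34 (5.88%) and of 6.86% of all 27025 promoters. In the 300 bases that run on to 50 past the start they occurred in 6 of the 34 (17.6%) and in 8.09% of all promoters. The median GC content was 57.6% for the 34 and 52% for all. The 2 upstream matches are shown because they are the members with the motif before the start, Nop2 at chr6:125131773-125131878 (plus strand) and Utp18 at chr11:93885767-93885836 (minus strand), 5′ to 3′ in the sense of the gene, with the motif in capitals. It begins 60 bases before the start of Nop2 and 20 before that of Utp18.

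Nop2: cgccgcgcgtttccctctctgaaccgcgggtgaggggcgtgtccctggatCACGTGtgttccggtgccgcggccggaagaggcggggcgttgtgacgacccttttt
Utp18: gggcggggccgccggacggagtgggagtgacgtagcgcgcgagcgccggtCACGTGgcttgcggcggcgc

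Both genes were above day 0 in the pools (Nop2 by 0.38 and 0.99, Utp18 by 0.81 and 0.43) and neither was called at day 2. In Pes1, Wdr43, Utp20 and Mybbp1a the motif began at or after the start. A match is a description of the letters and not a measured site.

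Over other genes of the pathway the day 1 medians in the WT and KO pools were 0.12 and 0.17 for RNA polymerase I and rDNA factors, 0.13 and 0.16 for small subunit factors and 0.17 and 0.27 for large subunit factors. Beside the list counts below, 7.27% of all genes were called higher at day 2 in WT and 5.37% lower. In KO the shares were 4.20% and 4.49%, and for KO against WT at day 2 they were 4.00% and 5.24%. The counts after quantile normalization have no such share beside them. Of 11 other tested genes listed with RNA polymerase I and rDNA factors, 3 were called higher in WT at day 2: Polr1d (0.58, adjusted p = 0.0208), Taf1a (2.46, adjusted p = 0.027) and Wdr46 (1.19, adjusted p = 0.0276). The product of Wdr46 belongs to the small subunit processome. Polr1d, a subunit shared with RNA polymerase III, was also called in KO (0.58, adjusted p = 0.026). Of 45 other small subunit factors, 3 rose in WT, 2 fell in KO and 3 were lower in KO than in WT at day 2, shares near those of all genes called. After quantile normalization 6 were called higher and 1 lower in WT, 1 higher and 2 lower in KO, and 1 higher and 4 lower in KO than in WT. Nop9 (0.97, adjusted p = 0.002), Trmt112 (0.85, adjusted p = 0.00471) and Tsr1 (0.85, adjusted p = 0.0298) were those that rose in WT. Trmt112 supports several methyltransferases, and it was lower in KO at day 2 (-1.01, adjusted p = 0.00338). Of 43 other large subunit factors, 4 rose in WT, 1 rose in KO and 4 were lower in KO at day 2; after quantile normalization 5 were called higher and 1 lower in WT. They included Wdr18 (2.12 ± 0.17 in WT, adjusted p = 1.42e-05; 1.48 in KO, adjusted p = 0.000307) and Eif6, the factor that keeps new large subunits from joining early (0.75 in WT, adjusted p = 0.000948; KO against WT -0.63, adjusted p = 0.00501).

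In the remaining lists, 1 of 7 snoRNP assembly factors rose in WT, Pih1d1 (0.69, adjusted p = 0.0394), and Pih1d1 and Ruvbl2 were lower in KO at day 2 (-0.92, adjusted p = 0.0106; -0.70, adjusted p = 0.0141). Of 10 exosome genes 1, Exosc8, rose in WT (1.94 ± 0.13, adjusted p = 4.3e-06) and in KO (1.08, adjusted p = 0.000339). RNA polymerase III and its factors (19 tested) had 1 gene called lower in WT and 1 called higher in KO, with medians of 0.01 and -0.00082, and 1 higher in KO than WT at day 2, a call lost after quantile normalization. The 11 RNA polymerase II subunits had no call in WT (median 0.19) and 2 lower in KO (median -0.71), with 3 lower in KO than WT at day 2 (4 after quantile normalization). Cytosolic ribosomal protein genes, the products of which the assembly factors put together, had medians of 0.63 and 0.46 in the WT and KO pools. At day 2, 28 of the 41 were called higher in WT (median 0.68), against 7.27% of all genes. In KO none was (median -0.0023, 6 with an unadjusted p under 0.05), against 4.20%. KO was called lower at day 2 for 22, against 5.24% of all genes, and the change lower in KO for 15, against 2.07%. After quantile normalization the counts were 20 in WT, 4 in KO, 11 and 3, with no share of all genes beside them. The KO day 2 arrays with fewer calls are those with the narrower range given above, and the part of that range was not tested.

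**Figure D5:**
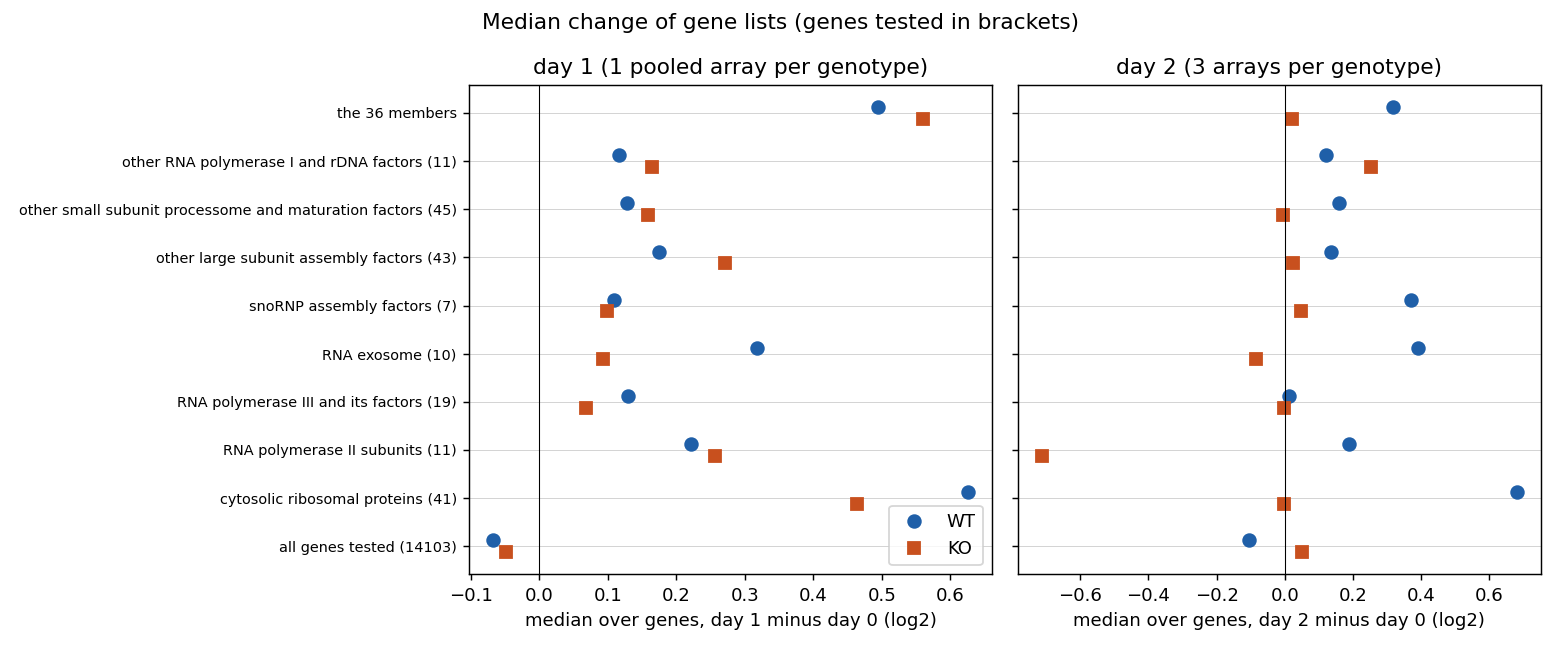
Median change over the tested genes of each list (numbers in brackets) at day 1 (left, 1 pooled array per genotype) and day 2 (right, 3 arrays per genotype) against day 0, log2; circles WT, squares KO. The 36 genes stand at 0.49 and 0.56 on day 1 and at 0.32 and 0.02 on day 2, and the ribosomal protein genes at 0.63 and 0.46, then 0.68 and -0.0023.

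Of the 36 genes, 23 had more than 1 kept probe set. All kept probe sets of a gene had the same sign for 17 of the 23 in the WT pool, 14 in the KO pool, 19 in the WT day 2 change and 16 in the day 2 genotype difference. The genes most like the mean profile of the 36 over the 12 arrays, by Pearson r, were Mars1 (0.98), Maged1 (0.96), Pcbp1 (0.96), Jpt2 (0.96) and Lrrc58 (0.95), a description in which all points share the same arrays.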

How the data were processed

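RNA from 12 liver samples was measured, 1 array each. The authors deposited MAS5 intensities on a linear scale, per the submitters' processing notes and the deposited value table; further scaling was not given in the sources used here. Probe sets were named from GEO's platform annotation (45101 probe sets: 34945 name 1 gene, 932 several, 9160 none, 64 controls).

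Intensities were log2-transformed after adding 16, and 1 probe set stood for each gene. Genes above the array median on at least 2 arrays were fitted with limma 3.58.1 (R 4.3.3; 6 group means over all 12 arrays, trended and robust empirical Bayes, 6 residual degrees of freedom, Benjamini-Hochberg over 14103 genes); the script was tested on simulated data. Day 1 pools were described by a 1.5-fold difference. Genotype was also permuted exactly within days 0 and 2 (smallest p 0.0167). The number of arrays limits the precision. Same-numbered samples did not deviate together (13 pairs, correlation from -0.0241 to 0.0345), so no block was used. Members and lists were chosen with earlier results of these data known. Values on every array are given for Ncl, Npm1, Fbl, Polr1a, Polr1b and Polr1c, for called members and for the largest mean change of each role; others by counts or single values, some singled out after their values were seen. Alternatives changed the scaling, pseudocount, filter, probe set rule, model and samples.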

Additional observations from a re-analysis of the deposited data

Results flagged for a closer look

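For 5 genes the day 2 changes were flagged for a difference between the genotypes. The flag was either the test of that difference, or all day 2 arrays moving one way in WT and the other in KO. The KO change minus the WT change was -0.90 for Nop16 (limma, adjusted p = 0.0393), -1.10 for Rrs1 (adjusted p = 0.0426) and -0.97 for Ncl (adjusted p = 0.0442). For Noc4l it was -1.18 (adjusted p = 0.0684) and for Ebna1bp2 -1.64 (adjusted p = 0.0811). These 2 were not called, and were flagged because all 3 WT day 2 arrays lay above the day 0 arrays and all 3 KO day 2 arrays below them. Of all genes, 19.2% had all WT day 2 arrays above day 0 and 17.8% all KO day 2 arrays below it. The share of all genes with both was not counted, so the opposite directions are not read as an excess. Nop16 and Rrs1 had the same opposite directions, and the KO values of Ncl overlapped day 0. Opposite directions were not seen on another kept probe set of Noc4l (1.26 in WT, 0.25 in KO) or of Ebna1bp2 (-0.13 in WT, -0.50 in KO). On the 2 other kept Ncl probe sets the changes were 0.95 and 0.33 in WT and 0.70 and -0.09 in KO. For Rrs1, Nop16, Ebna1bp2 and Ncl the KO day 0 arrays were both above the WT day 0 arrays. KO minus WT at day 0 was 1.01, 0.50, 0.97 and 0.38 (limma, adjusted p from 0.0881 to 0.617).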

How the results depend on the processing

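No called gene reversed its direction, and Nhp2 in WT, in the mean of both genotypes and between genotypes at day 2, and Ncl in WT, were called in all 22 alternatives computed for single genes. Cyclic loess normalization, testing each kept probe set, leaving out the pools, and the alternatives for counts of arrays and for day 1 leave-outs were added after seeing the data. After median centring of the arrays, the members' median was 0.44 in WT and -0.043 in KO at day 2, -0.51 between genotypes, -0.62 for the difference of changes and 0.66 in the KO pool; 1 gene was called in KO, 13 between genotypes, and 13 were 1.5-fold higher in both pools. The KO count of 2 was 1 without the filter, 1 with the replicate block, and 0 with the mean of all kept probe sets, plain eBayes or only the arrays compared. The KO median was -0.049 with the mean of probe sets and -0.056 over each kept probe set. Plain eBayes left 2 calls in the mean of both genotypes and 0 in the difference of changes. Between genotypes at day 2, 10 genes were called with only the arrays compared. The 3 calls on the difference of changes became 0 without the filter, 1 with the mean of probe sets and 1 with the replicate block, and its median was -0.36 with a pseudocount of 64 and -0.53 after cyclic loess. With the mean of probe sets the WT pool's median was 0.56. At an adjusted p under 0.10, 15 genes were called between genotypes at day 2, 1 at day 0 and 6 in the difference of changes. The counts under these alternatives have no share of all genes beside them, so they are not read as an excess. Causes were not tested.

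Leaving out 1 array gave 3 to 8 calls in WT (median 0.24 to 0.37), 0 to 3 in KO (median -0.03 to 0.02), 2 to 7 in the mean (median 0.13 to 0.22), 2 to 9 between genotypes at day 2 (median -0.39 to -0.29), 0 to 1 at day 0 (median -0.034 to 0.071) and 0 to 3 in the difference of changes (median -0.55 to -0.27). The pools' medians ran from 0.41 to 0.58 in WT and 0.48 to 0.58 in KO. With the replicate numbers as a block, the numbers did not pair the samples (no same-number correlation over 0.1). Where a group kept 1 array, that array was assumed to vary like the others. With 2 or 3 arrays a group, a difference that missed the threshold is not shown to be absent.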
